A study of Mus musculus with 24 samples.

Results

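Autosomal messenger RNA was compared between cortex libraries whose titles hold the letter F and those that hold M, 12 against 12. The members were chosen by the chromosome column of the deposited count table, which puts 49522 of its 53647 genes on an autosome. Of these, 20558 had enough reads to be tested. The mice were 7.5 months old, and each of 3 genotypes had 4 F and 4 M libraries. The 5xFAD group is titled WT, the M28L group (5xFADM28L) and the P522R group (5xFADP522R) are titled HOM for a variant of Plcg2, and all 3 carry the 5xFAD transgenes. No group without the transgenes was analysed here. The 5xFAD transgenes, human APP among them, carry familial Alzheimer's disease mutations and are driven by the Thy1 promoter, which is active in neurons. The labels do not spell out the letters. Xist, the RNA that coats an inactive X chromosome, ran from 170 to 420 CPM (counts per 1000000 counted reads) in the F libraries and reached at most 1.86 CPM in the M libraries, while the Y-linked gene Ddx3y ran from 32.7 to 52.3 CPM in M and reached at most 0.328 CPM in F. Animal numbers differ between all libraries, so each was taken as 1 mouse.

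In this line plaques of amyloid-beta form in the cortex with age. Microglia, the macrophages of the brain, gather at plaques and switch on receptors, proteases and lipid-handling genes under the control of the receptor Trem2, while astrocytes raise the filament protein gene Gfap. A further part of the response is a set of genes induced by interferons. Neuronal, synaptic and metabolic genes in the same tissue are read from the same RNA, so each level is a share of the library.

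Every difference below is F minus M on the log2 scale with genotype as covariate, given as estimate ± standard error. The adjusted p comes from edgeR's quasi-likelihood test with Benjamini-Hochberg adjustment over all 21280 genes tested, and a gene is called at an adjusted p below 0.05. Of the autosomal genes tested, 3399 (16.5%) were called higher in F and 3511 (17.1%) lower, with a median difference of 0.00. Of the calls 49.2% were higher in F, and 63.7% were with upper-quartile scaling, which moved the median of all genes to 0.06. Most differences were small: the median size of a called difference was 0.34 and 279 calls were over 1. All 12 F libraries lay above all 12 M libraries for 37 genes (0.180%) and below them for 13 (0.0632%). Each list below was assembled with earlier results of these data known, so its direction is no independent evidence. It is described by its counts and its median beside those of all autosomal genes. Some genes are on several lists and are counted in each, so the lists are not separate results.

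The libraries also differed by letter in composition. Total counts ran from 79230161 to 115154197 in F and from 94698916 to 112234025 in M (exact permutation of letters within genotype, two-sided, adjusted p = 0.093). Ribosomal protein genes took 1.82% ± 0.248 (SD) of the counts in F and 1.24% ± 0.152 in M (exact permutation, adjusted p = 3.5e-05; the unadjusted p of 5.8e-06 is the smallest this design allows). Bc1, a short non-coding RNA of neurons, took 8.15% ± 4.58 in F and 5.16% ± 2.31 in M (exact permutation, adjusted p = 0.0057), and over 10% in 5 libraries. Shorter genes were also higher in F, as detailed with the metabolic genes. Alternative fits are therefore given beside the lists: offsets for gene length and GC content, under which 18.4% of autosomal genes were called higher and 12.3% lower, and the log2 Bc1 share as a covariate, under which 4.06% were called higher and 2.52% lower. Their part in the letter differences was not tested, and composition and letter cannot be told apart where they move together. A list's counts under a fit are to be read beside the autosomal shares of the same fit.

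The microglial plaque-response genes were higher in F. Of 37 listed markers of plaque-associated microglia, 36 are autosomal and were tested. In all, 34 were called higher and 0 lower, against 16.5% and 17.1% of autosomal genes, with a list median of 0.79. The members not called were Igf1 and Hif1a, named after their values were seen. In bulk tissue more cells of a type and more RNA per cell cannot be told apart.

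Trem2, the lipid-sensing receptor of microglia, ran from 49.4 to 146 CPM in the F libraries (median 94.2) and from 23.6 to 84.8 CPM in the M libraries (median 33.7). The difference was 1.11 ± 0.12 (adjusted p = 3.6e-07). Its signalling adaptor Tyrobp ran from 39.7 to 93.3 CPM in the F libraries (median 71.3) and from 17.1 to 57.8 CPM in the M libraries (median 26.6), a difference of 1.16 ± 0.10 (adjusted p = 2.0e-08). For both genes the F and M ranges overlapped, while the middle of the F libraries lay above every M library. Cst7, an inhibitor of lysosomal cathepsins, ran from 24.7 to 118 CPM in the F libraries (median 67.4) and from 8.88 to 60.1 CPM in the M libraries (median 20.7), the largest difference of these genes at 1.39 ± 0.16 (adjusted p = 4.7e-07). Itgax, the integrin CD11c, was measured from 6.87 to 36.7 CPM in the F libraries (median 24.2) and from 3.72 to 27.9 CPM in the M libraries (median 11.8), with a difference of 0.81 ± 0.12 (adjusted p = 1.9e-05). Its call was lost without the genotype term, where the difference was 0.82 (adjusted p = 0.061), and with the P522R libraries alone.

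Lyz2, the lysozyme of myeloid cells, separated the letters completely. It ran from 34.3 to 77.1 CPM in the F libraries (median 55.7) and from 14.8 to 33.7 CPM in the M libraries (median 24.8), a difference of 1.17 ± 0.11 (adjusted p = 2.0e-08). Cd63, a tetraspanin of late endosomes, was measured from 91.3 to 199.5 CPM in the F libraries (median 134) and from 52.2 to 134 CPM in the M libraries (median 63.8) and differed by 0.90 ± 0.08 (adjusted p = 2.5e-08). The cathepsin Ctsz differed by 0.95 ± 0.09 (adjusted p = 2.0e-08) and the galectin Lgals3 by 1.28 ± 0.13 (adjusted p = 1.6e-07). Apoe, the apolipoprotein made by astrocytes and by plaque microglia, ran from 1838 to 3824 CPM in the F libraries (median 2415) and from 1429 to 2564 CPM in the M libraries (median 1826), a smaller difference of 0.40 ± 0.07 (adjusted p = 7.0e-05) with wide overlap.

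The list was higher in F in each genotype taken alone. Within 5xFAD 32 of the 36 genes were called higher (7.96% of autosomal genes were), with a median of 0.97. Within M28L 23 were called higher (7.97%), with a median of 0.84, and within P522R 23 (9.10%), with a median of 0.69. No member was called lower in any of these. For Trem2 the differences were 1.27 in 5xFAD, 1.04 in M28L and 1.02 in P522R, and for Cst7 1.52 in 5xFAD, 1.59 in M28L and 1.06 in P522R. The count stayed at 34 with length and GC offsets and was 26 with the Bc1 share as covariate and 33 without the 5 libraries high in Bc1.

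**Figure D1:**
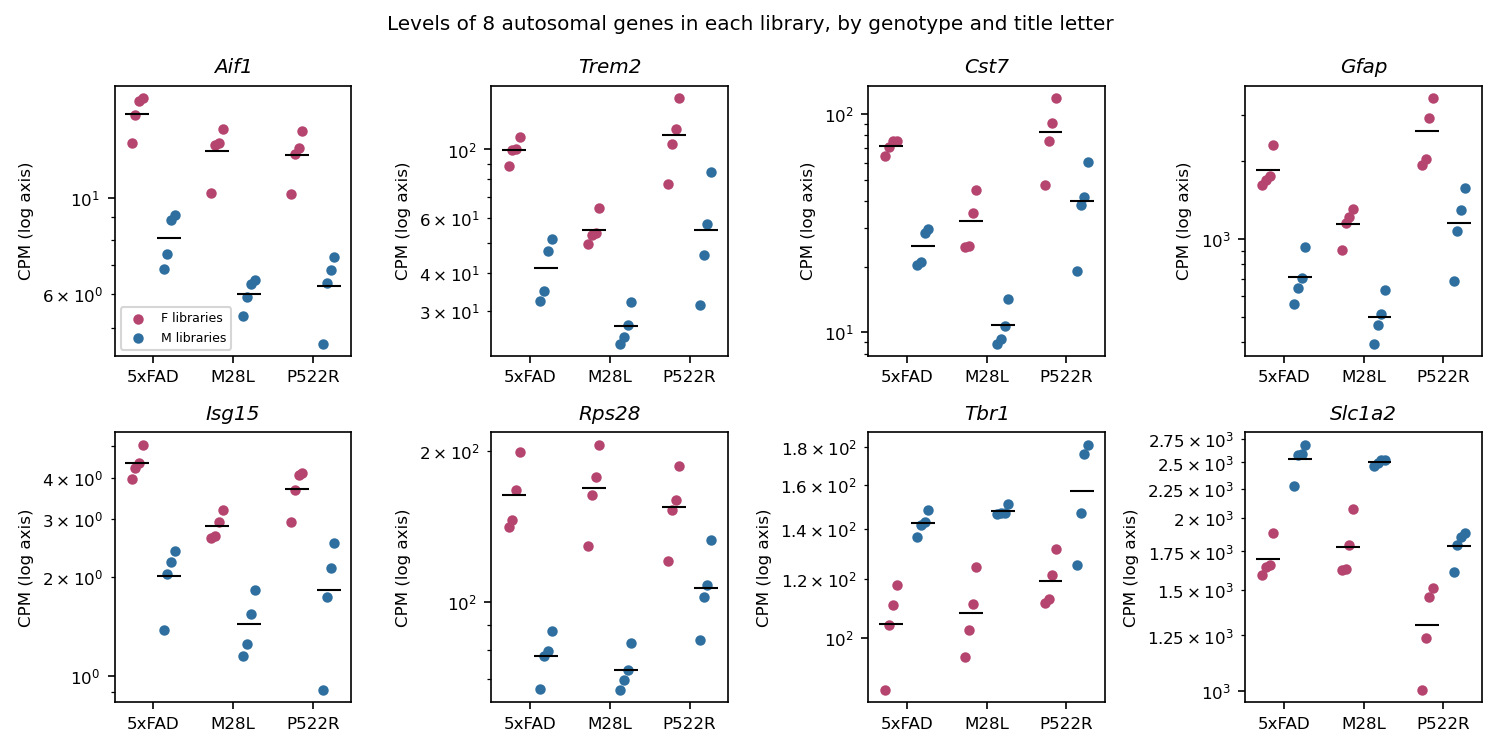
CPM (log axis) of 8 genes in each of 24 libraries, by genotype and letter; each point is a library and each bar the mean of 4. Aif1 and Isg15 separate the letters over all libraries, Trem2, Cst7, Gfap and Rps28 are higher in F, and Tbr1 and Slc1a2 are lower in F.

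General myeloid and resting microglial genes moved the same way. Of 22 pan-myeloid genes, 21 were called higher and 0 lower, with a median of 0.61, and Coro1a was not called. Aif1, which encodes the calcium-binding protein IBA1, ran from 10.2 to 17.0 CPM in the F libraries (median 13.4) and from 4.60 to 9.10 CPM in the M libraries (median 6.63). All F libraries lay above all M libraries, and the difference was 1.02 ± 0.08 (adjusted p = 1.2e-09). The Fc receptor genes Fcgr3 and Fcgr1 differed by 0.98 ± 0.09 (adjusted p = 2.0e-08) and 0.93 ± 0.11 (adjusted p = 8.2e-07). Among 24 genes of homeostatic microglia 17 were called higher and 1 lower, with a median of 0.45. Cx3cr1, the fractalkine receptor, ran from 88.2 to 192 CPM in the F libraries (median 144) and from 71.8 to 130.3 CPM in the M libraries (median 94.5), a difference of 0.58 ± 0.07 (adjusted p = 1.4e-06). The orphan receptor gene Fcrls differed by 0.92 ± 0.10 (adjusted p = 1.5e-07) and Olfml3 by 0.75 ± 0.09 (adjusted p = 1.5e-06). Cst3, the cystatin C gene, is also expressed outside microglia and differed by 0.55 ± 0.06 (adjusted p = 7.2e-07). The 1 gene called lower was Mef2a, a transcription factor also expressed in neurons (-0.38, adjusted p = 9.3e-04), named after its value was seen. Plaque-associated and homeostatic genes were thus both higher in F, with no test of the difference between the lists.

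Border macrophage markers, which mark cells at the vessels and meninges, were mixed. Of 12 tested, 5 were called higher and 1 lower, against 16.5% and 17.1% of autosomal genes. Their summed level ran from 15.9 to 45.9 CPM in F and from 22.6 to 37.4 CPM in M. Mrc1, the mannose receptor that defines these cells, was lower in F, from 1.86 to 4.21 CPM in the F libraries (median 2.96) and from 2.61 to 5.83 CPM in the M libraries (median 3.92), a difference of -0.45 ± 0.13 (adjusted p = 0.0094). Cbr2 was higher by 1.11 ± 0.28 (adjusted p = 0.0026), and its highest values, 5.18 and 7.09 CPM, were in P522R F libraries. The call of Mrc1 was lost with offsets, at -0.27 (adjusted p = 0.074). With the Bc1 share as covariate 0 of the 12 were called, where 4.06% of autosomal genes were called higher and 2.52% lower. These markers were tested in the same mice as the microglial genes, and their part in the microglial differences was not tested.

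Interferon-induced genes were higher in F. Of 34 listed, 29 were called higher and 0 lower, with a median of 0.74. These genes defend cells against viruses, and in plaque-bearing brain part of the microglia express them. Many carry the interferon-stimulated response element near the start site, bound by the ISGF3 complex and by IRF proteins. Its core, GAAA and GAAA with any 2 bases between (TTTC and TTTC on the other strand), was searched on both strands in the 250 bases upstream of the start in RefSeq promoters (GRCm38.p6). It was found in 14 of the 25 list members with a promoter there (56%), against 675 of 19449 autosomal promoters (3.47%). The promoters of 3 of the 4 list members with the smallest p hold it more than once, with overlapping matches, and are shown because these genes lead the list. Letters are 5′ to 3′ on the gene's strand, and capitals mark the union of the matches.
Oas1a, chr5:120907526-120907775, minus strand: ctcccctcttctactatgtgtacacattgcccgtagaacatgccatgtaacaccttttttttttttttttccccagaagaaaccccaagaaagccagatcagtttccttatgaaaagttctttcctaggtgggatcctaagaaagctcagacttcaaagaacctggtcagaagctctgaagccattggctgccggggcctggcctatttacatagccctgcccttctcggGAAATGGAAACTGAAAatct
Isg15, chr4:156200819-156201068, minus strand: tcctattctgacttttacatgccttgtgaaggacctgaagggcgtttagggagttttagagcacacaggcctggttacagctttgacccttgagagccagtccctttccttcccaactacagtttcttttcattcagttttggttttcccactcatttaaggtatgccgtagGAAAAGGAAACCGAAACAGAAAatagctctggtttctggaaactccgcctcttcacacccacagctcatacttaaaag
Bst2, chr8:71537473-71537722, minus strand: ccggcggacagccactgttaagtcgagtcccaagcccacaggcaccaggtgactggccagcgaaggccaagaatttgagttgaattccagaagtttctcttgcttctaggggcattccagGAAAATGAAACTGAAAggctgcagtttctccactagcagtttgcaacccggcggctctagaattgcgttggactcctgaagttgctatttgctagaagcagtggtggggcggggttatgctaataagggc
Ifitm3, the other of these, held no match in this window. Members with a match had a median difference of 0.60 (-0.19 to 1.51) and those without one 0.72 (0.02 to 0.93), with no test of the difference.

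Oas1a, which makes the 2-5A messenger that activates RNase L, ran from 2.65 to 7.92 CPM in the F libraries (median 4.03) and from 0.640 to 4.03 CPM in the M libraries (median 1.36), a difference of 1.51 ± 0.16 (adjusted p = 1.5e-07). Isg15, a ubiquitin-like modifier, ran from 2.63 to 5.04 CPM in the F libraries (median 3.82) and from 0.909 to 2.54 CPM in the M libraries (median 1.78). Every F library lay above every M library, and the difference was 1.05 ± 0.12 (adjusted p = 8.8e-07). Bst2, the tetherin gene, ran from 4.52 to 10.6 CPM in the F libraries (median 8.17) and from 1.90 to 5.24 CPM in the M libraries (median 3.39), a difference of 1.10 ± 0.13 (adjusted p = 1.3e-06). Ifitm3, which blocks viral entry at endosomes and has been tied to gamma-secretase, ran from 13.1 to 34.1 CPM in the F libraries (median 20.8) and from 7.72 to 23.4 CPM in the M libraries (median 11.4), a difference of 0.87 ± 0.11 (adjusted p = 1.2e-06). Isg15 alone among these 4 showed no overlap. Within genotypes 21 of the list were called higher in 5xFAD (median 0.82), 18 in M28L (0.68) and 14 in P522R (0.63), and 0 lower in any. With offsets 30 were called higher, and with the Bc1 share 23. Members not called were Ifih1, Gbp7, Gbp2, Ifit2 and Stat2, named after their values were seen.

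Antigen presentation genes were higher in F, with 14 of 21 called higher and 0 lower and a median of 0.51. Psmb8, a subunit of the immunoproteasome that cuts peptides for class I molecules, ran from 8.11 to 19.98 CPM in the F libraries (median 13.3) and from 4.19 to 9.73 CPM in the M libraries (median 6.70), a difference of 1.06 ± 0.09 (adjusted p = 1.3e-08). Psmb9, a second such subunit, differed by 0.97 ± 0.11 (adjusted p = 8.0e-07). The class II loader H2-DMb1 differed by 1.06 ± 0.14 (adjusted p = 2.9e-06). H2-D1, a class I heavy chain, differed by 0.55 ± 0.09 (adjusted p = 5.1e-05), and reads of near-identical H2 genes could be split between copies. The count was 14 with offsets and 7 with the Bc1 share as covariate. Within genotypes 7 members were called higher in 5xFAD, 5 in M28L and 16 in P522R, and this difference was not tested for the list.

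Complement genes followed. Of 19 listed, 17 were tested, 12 were called higher and 0 lower, with a median of 0.46. C1qa, the first chain of the C1q recognition molecule, ran from 127 to 234 CPM in the F libraries (median 189) and from 65.7 to 146 CPM in the M libraries (median 92.6), a difference of 0.88 ± 0.10 (adjusted p = 4.0e-07). C1qb and C1qc, the other chains, differed by 0.84 ± 0.10 (adjusted p = 1.0e-06) and 0.73 ± 0.10 (adjusted p = 3.2e-06). The C3a receptor gene C3ar1 differed by 0.70 ± 0.09 (adjusted p = 3.4e-06). The 3 C1q chains are made by microglia and shifted by close amounts. C1s1, C1ra, Clu and C2 were among those not called, and they were named after their values were seen. With the Bc1 share as covariate 8 were called higher.

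More lysosomal genes were called higher than lower in F. Of 33 tested 18 were called higher and 2 lower, with a median of 0.20. Ctsb, Ctsd, Ctsl, Ctss and Ctsz are also on the list of plaque-associated microglia. Proteases were among the higher ones: Ctsh ran from 23.2 to 43.9 CPM in the F libraries (median 35.7) and from 13.2 to 30.5 CPM in the M libraries (median 17.2), a difference of 0.87 ± 0.09 (adjusted p = 7.7e-08), and Ctsl differed by 0.46 ± 0.06 (adjusted p = 4.0e-06). Npc2, which hands cholesterol to the lysosomal membrane, ran from 88.5 to 134 CPM in the F libraries (median 119.5) and from 64.4 to 103 CPM in the M libraries (median 72.2) and differed by 0.61 ± 0.06 (adjusted p = 6.8e-08). The genes called lower were Atp6v1a, a subunit of the proton pump (-0.32, adjusted p = 4.5e-06), and Galc, which degrades galactosylceramide (-0.19, adjusted p = 0.0062), both named after their values were seen. With offsets 22 were called higher and 3 lower.

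**Figure D2:**
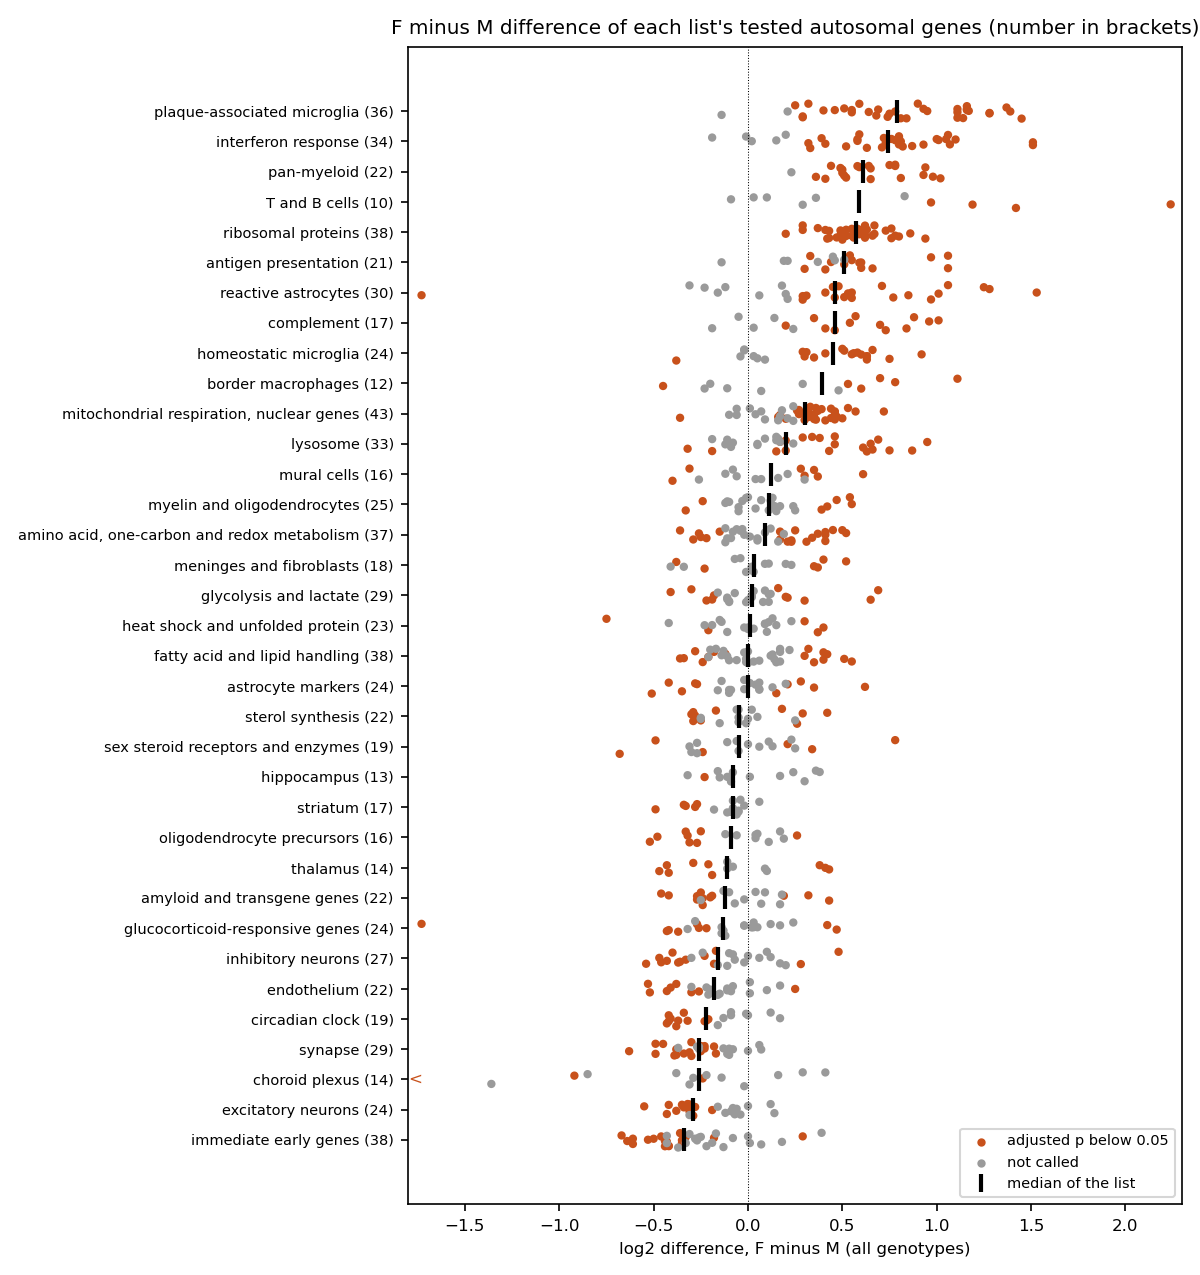
F minus M difference (log2) of each tested autosomal gene, by list, for lists of at least 10 tested genes; black bars are list medians and orange points are called genes. Plaque-associated microglia (0.79) and interferon response (0.74) have the highest medians and immediate early genes (-0.34) the lowest; Ttr at -3.47 lies beyond the left edge.

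Reactive astrocyte genes were mostly higher in F. Of 30 tested reactive astrocyte genes 21 were called higher and 1 lower, with a median of 0.46. The list shares Psmb8, C4b, Cxcl10 and Gbp2 with the antigen presentation, complement and interferon lists. It shares Cd44 and Ctsb with the plaque-associated microglia. Gfap ran from 903 to 3494 CPM in the F libraries (median 1726) and from 394 to 1577 CPM in the M libraries (median 669), a difference of 1.25 ± 0.12 (adjusted p = 6.7e-08). The ranges overlapped, although the F median lay above every M library. Serpina3n, a secreted protease inhibitor, ran from 27.9 to 141 CPM in the F libraries (median 60.1) and from 17.6 to 55.7 CPM in the M libraries (median 27.3), a difference of 0.97 ± 0.13 (adjusted p = 3.6e-06). Cd14, the lipopolysaccharide co-receptor on this list, is chiefly a microglial gene and differed by 0.85 ± 0.10 (adjusted p = 7.9e-07). Lcn2 was the 1 called lower (-1.73, adjusted p = 0.025), although its medians were 0.344 CPM in F and 0.423 CPM in M, and it was named after its value was seen. With offsets 22 were called higher and 2 lower, and with the Bc1 share 12 and 0.

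Of 24 general astrocyte markers 5 were called higher and 5 lower, against 16.5% and 17.1% of autosomal genes, with a median of -0.00. S100b, a calcium-binding protein, ran from 151 to 324 CPM in the F libraries (median 186) and from 107 to 195 CPM in the M libraries (median 122), a difference of 0.62 ± 0.08 (adjusted p = 1.9e-06). Slc1a2, the main glutamate transporter, ran from 1004 to 2075 CPM in the F libraries (median 1626) and from 1610 to 2684 CPM in the M libraries (median 2480), a difference of -0.51 ± 0.06 (adjusted p = 1.1e-06). The bicarbonate transporter Slc4a4 was lower as well, from 93.7 to 127 CPM in the F libraries (median 108) and from 125 to 156 CPM in the M libraries (median 143), and differed by -0.42 ± 0.05 (adjusted p = 8.8e-07). Gja1, the gap junction protein connexin 43, ran from 114.8 to 146 CPM in the F libraries (median 129.7) and from 146 to 177 CPM in the M libraries (median 159). All F libraries lay below all M libraries, at a difference of -0.28 ± 0.05 (adjusted p = 6.6e-05). With the offsets for length and GC content together Slc1a2 was at -0.25 (adjusted p = 1.4e-04) and Gja1, no longer called, at -0.02 (adjusted p = 0.82). The list was then 4 higher and 2 lower, against 18.4% and 12.3% of autosomal genes. With the Bc1 share it was 2 and 4, against 4.06% and 2.52%.

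Mature oligodendrocyte genes were mixed, 5 of 25 called higher and 2 lower, against 16.5% and 17.1% of autosomal genes, with a median of 0.11. Mog, a myelin surface protein, ran from 68.5 to 110.3 CPM in the F libraries (median 89.2) and from 52.4 to 88.3 CPM in the M libraries (median 64.6), a difference of 0.47 ± 0.07 (adjusted p = 2.0e-05). Trf, the iron carrier transferrin, differed by 0.54 ± 0.09 (adjusted p = 5.0e-05) and Opalin by 0.55 ± 0.10 (adjusted p = 1.5e-04). Apod, a lipid carrier, differed by 0.42 ± 0.07 (adjusted p = 8.0e-05). The other gene called higher was Nkx6-2, and those called lower were Ugt8a and Enpp2. Enpp2 was not called without P522R F 24 (-0.20, adjusted p = 0.058). Of 16 oligodendrocyte precursor genes 1 was called higher and 7 lower, with a median of -0.09. Tnr, the matrix protein tenascin-R, ran from 71.5 to 127 CPM in the F libraries (median 101) and from 121 to 154 CPM in the M libraries (median 144), a difference of -0.52 ± 0.06 (adjusted p = 1.3e-06). Ptprz1, a receptor phosphatase shared with astrocytes, differed by -0.48 ± 0.07 (adjusted p = 7.7e-06). With offsets the precursor count was 3 higher and 4 lower, and with the Bc1 share 0 and 2. Opalin was not called with the Bc1 share, at 0.36 (adjusted p = 0.10).

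Vascular lists held calls in both directions, against 16.5% higher and 17.1% lower over all autosomal genes. Of 22 endothelial genes 1 was called higher and 7 lower, with a median of -0.18. Flt1, a receptor of vascular endothelial growth factor, ran from 20.3 to 34.8 CPM in the F libraries (median 27.2) and from 23.4 to 61.5 CPM in the M libraries (median 39.5), a difference of -0.52 ± 0.12 (adjusted p = 8.8e-04). Abcb1a, the P-glycoprotein pump, differed by -0.53 ± 0.11 (adjusted p = 6.2e-04), and the junction protein Ocln by -0.38 ± 0.08 (adjusted p = 5.4e-04). Bsg was the 1 called higher, by 0.25 ± 0.07 (adjusted p = 0.0036). By genotype, within 5xFAD 4 were called lower (6.18% of autosomal genes were), within M28L 9 (6.96%) and within P522R 1 (13%), with medians of -0.20, -0.47 and 0.06. Mural cell genes were 5 higher and 2 lower of 16. The contractile gene Acta2 was higher by 0.61 ± 0.14 (adjusted p = 0.0014), while the pericyte genes Abcc9 and Rgs5 were lower, at -0.40 ± 0.08 (adjusted p = 3.6e-04) and -0.31 ± 0.07 (adjusted p = 0.0012). With offsets the endothelial count was again 1 and 7 and the mural one 3 and 2, and Ocln and Bsg were not called, at -0.28 (adjusted p = 0.059) and 0.09 (adjusted p = 0.27). Endothelial genes were 0 higher and 5 lower with the Bc1 share, and mural genes 3 and 0. Bsg, Abcc9 and Rgs5 then lost their calls (adjusted p = 0.57, 0.12 and 0.26), and Bsg also without the genotype term (adjusted p = 0.082).

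Markers of other tissues were read in the same libraries, beside 16.5% of autosomal genes called higher and 17.1% lower. Of 14 choroid plexus genes 0 were called higher and 3 lower, and their summed level reached 236 CPM in F and 673 CPM in M. Enpp2, also on the oligodendrocyte list, was among the 3 and made up most of this sum in many libraries. In 5xFAD F it ran from 176.5 to 217.3 CPM, against a list sum from 185.8 to 230.1 CPM. Ttr, transthyretin, ran from 0.0717 to 3.09 CPM in the F libraries (median 0.324) and from 0.238 to 239.7 CPM in the M libraries (median 0.8286), a difference of -3.47 ± 1.06 (adjusted p = 0.012). The value of 239.7 CPM belongs to M28L M 17, and without that library Ttr gave -1.30 (adjusted p = 0.092). It was not called with the Bc1 share, at -2.12 (adjusted p = 0.42). Of 18 meningeal and fibroblast genes 4 were called higher and 2 lower, against 16.5% and 17.1% of autosomal genes. Haemoglobin genes gave 0 of 4 called, from 0.391 to 24.0 CPM in sum in F and from 0.225 to 20.1 CPM in M. Of 10 tested T and B cell genes 4 were called higher, at very low levels. Cd8a, a marker of cytotoxic T cells, ran from 0.0699 to 0.485 CPM in the F libraries (median 0.212) and from 0 to 0.213 CPM in the M libraries (median 0.0816), a difference of 1.42 ± 0.36 (adjusted p = 0.0034). Nkg7, Cd3e and Cd79b differed by 2.24 ± 0.54 (adjusted p = 0.0019), 1.19 ± 0.41 (adjusted p = 0.025) and 0.97 ± 0.22 (adjusted p = 0.0013). Cd3e was not called without P522R F 24 (1.05, adjusted p = 0.052), without 5xFAD F 1190 (1.07, 0.056) or without 5xFAD M 1181 (1.09, 0.051), and 0 of 10 genes were called with the Bc1 share as covariate. In sum the list was level, from 19.0 to 25.9 CPM in F and from 19.1 to 23.3 CPM in M. The 4 called genes each reached at most 0.894 CPM (Cd79b), so this sum came mostly from members not called.

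More neuronal genes were called lower than higher in F, while 17.1% of autosomal genes were called lower and 16.5% higher. Of 24 excitatory neuron genes 13 were called lower and 0 higher, with a median of -0.29. Tbr1, which specifies deep-layer neurons, ran from 85.2 to 132 CPM in the F libraries (median 111) and from 125 to 181 CPM in the M libraries (median 147), a difference of -0.43 ± 0.06 (adjusted p = 8.3e-06). Rasgrf2 and Bcl11b differed by -0.34 ± 0.05 (adjusted p = 1.5e-05) and -0.35 ± 0.05 (adjusted p = 1.1e-05). These cortical markers were present in every library, and the F and M ranges of Tbr1 overlapped at their edges only. With offsets 12 were called lower and 1 higher, at a median of -0.13. With the Bc1 share as covariate 4 were called lower. Tbr1 was called under both, at -0.38 (adjusted p = 1.5e-05) and -0.28 (adjusted p = 0.020).

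Inhibitory neuron genes were 2 higher and 11 lower of 27, against 16.5% and 17.1% of autosomal genes, with a median of -0.16. By genotype 10 were called lower in 5xFAD (6.18% of autosomal genes were), 2 in M28L (6.96%) and 4 in P522R (13%). Called higher were 2, 1 and 0 (7.96%, 7.97% and 9.10%). The medians were -0.17 in 5xFAD, 0.04 in M28L and -0.16 in P522R, so the list was not lower in M28L. Gad2, which makes GABA, ran from 95.2 to 189 CPM in the F libraries (median 117) and from 118 to 206 CPM in the M libraries (median 179), a difference of -0.54 ± 0.09 (adjusted p = 4.0e-05). Reln, the secreted protein reelin, differed by -0.46 ± 0.07 (adjusted p = 2.3e-05) and the potassium channel Kcnc2 of fast-spiking cells by -0.43 ± 0.08 (adjusted p = 1.5e-04). The genes called higher were Pvalb (0.48, adjusted p = 2.2e-04), which marks fast-spiking cells, and Cck (0.28, adjusted p = 6.1e-04), both named after their values were seen. With offsets 14 were called lower and 2 higher, and with the Bc1 share 2 and 0. Gad2 and Kcnc2 then lost their calls, at -0.32 (adjusted p = 0.075) and -0.21 (adjusted p = 0.16).

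Synaptic genes were lower in 17 of 29 cases and higher in 0, against 17.1% and 16.5% of autosomal genes, with a median of -0.26. Among autosomal genes of at least 1 CPM split into 5 bins by exonic length, 55.1% of the longest were called lower, with a median of -0.22. Gabrb2, a subunit of GABA-A receptors, ran from 30.2 to 88.9 CPM in the F libraries (median 58.5) and from 57.1 to 106 CPM in the M libraries (median 93.5), a difference of -0.63 ± 0.09 (adjusted p = 7.0e-06). Gphn, the scaffold gephyrin that holds those receptors, ran from 36.5 to 57.2 CPM in the F libraries (median 48.8) and from 53.0 to 66.9 CPM in the M libraries (median 62.4) and differed by -0.39 ± 0.06 (adjusted p = 8.2e-06). Shank2, a scaffold of excitatory synapses, differed by -0.49 ± 0.07 (adjusted p = 9.7e-06), and Syt1, the calcium sensor of transmitter release, by -0.34 ± 0.05 (adjusted p = 2.1e-05). With the offsets for length and GC content 10 were called lower and 3 higher, against 12.3% and 18.4% of autosomal genes, at a median of -0.07. With offsets and the Bc1 share together the count was 2 and 0 at -0.02, where 1.58% of autosomal genes were called lower and 5.42% higher.

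Immediate early genes, which neurons switch on within minutes of firing, were lower in F. Of 38 tested 18 were called lower and 1 (Gadd45g, named after its value was seen) higher, with the lowest list median, -0.34. Egr3 ran from 66.4 to 132 CPM in the F libraries (median 93.5) and from 98.5 to 185 CPM in the M libraries (median 146), a difference of -0.61 ± 0.10 (adjusted p = 6.6e-05). Nr4a3, an orphan nuclear receptor, ran from 11.9 to 40.8 CPM in the F libraries (median 17.4) and from 15.5 to 46.1 CPM in the M libraries (median 31.0), a difference of -0.67 ± 0.13 (adjusted p = 2.2e-04). Its relative Nr4a2 and the kinase Sik1 differed by -0.44 ± 0.08 (adjusted p = 6.4e-05) and -0.50 ± 0.12 (adjusted p = 0.0017). Within 5xFAD 4 were called lower (6.18% of autosomal genes were), within M28L 3 (6.96%) and within P522R 10 (13%), at medians of -0.22, -0.36 and -0.40. With offsets 18 were called lower at a median of -0.30. With the Bc1 share 3 were, at a median of again -0.34, and Egr3 and Sik1 were not among them (adjusted p = 0.088 and 0.073).

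Clock genes were 0 higher and 11 lower of 19, with a median of -0.22. Per2, a repressor of the clock, ran from 13.1 to 44.1 CPM in the F libraries (median 32.8) and from 30.6 to 62.3 CPM in the M libraries (median 40.7), a difference of -0.42 ± 0.10 (adjusted p = 0.0021). Hlf, an output factor, ran from 128 to 206 CPM in the F libraries (median 179) and from 155 to 263 CPM in the M libraries (median 231), a difference of -0.38 ± 0.06 (adjusted p = 6.2e-05). Npas2, an activator, differed by -0.41 ± 0.07 (adjusted p = 8.4e-05). Rora differed by -0.43 ± 0.09 (adjusted p = 3.8e-04). With offsets 6 of the list were called lower, and Rora was not, at -0.11 (adjusted p = 0.054). Only 1 was called lower with the Bc1 share, and Per2, Hlf, Npas2 and Rora all lost their calls (adjusted p = 0.15, 0.087, 0.10 and 0.29). Per2 was not called without the genotype term either (adjusted p = 0.053). Time of dissection is not given in the labels.

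Stress and hormone lists held calls in both directions, against 16.5% higher and 17.1% lower over all autosomal genes. The heat shock and sex steroid counts lay below both shares. Glucocorticoid-responsive genes were 2 higher and 7 lower of 24, the higher ones being the metallothioneins Mt1, from 89.9 to 214 CPM in the F libraries (median 114) and from 63.0 to 142 CPM in the M libraries (median 78.8), at 0.47 ± 0.07 (adjusted p = 2.0e-05), and Mt2 at 0.42 ± 0.08 (adjusted p = 3.0e-04). The mineralocorticoid receptor gene Nr3c2 was lower, at -0.37 ± 0.06 (adjusted p = 2.0e-05). Heat shock and unfolded protein genes were 3 higher and 2 lower of 23. Atf4, which drives the integrated stress response, separated the letters, from 114.5 to 152 CPM in the F libraries (median 128) and from 85.1 to 112 CPM in the M libraries (median 102), at 0.37 ± 0.05 (adjusted p = 3.4e-06). Its target Ddit3 differed by 0.30 ± 0.08 (adjusted p = 0.0033). Hspa1b, a heat shock chaperone with a near-identical copy in Hspa1a, differed by -0.75 ± 0.17 (adjusted p = 0.0010). Of 19 tested sex steroid genes 3 were called higher and 3 lower. The progesterone receptor gene Pgr ran from 8.60 to 20.7 CPM in the F libraries (median 12.6) and from 11.1 to 22.3 CPM in the M libraries (median 19.0), a difference of -0.49 ± 0.10 (adjusted p = 3.4e-04), and Akr1c14, which makes neurosteroids, differed by -0.68 ± 0.18 (adjusted p = 0.0038). Tspo, a mitochondrial cholesterol carrier used as a marker of glial activation, differed by 0.78 ± 0.15 (adjusted p = 1.7e-04). Mt2, Ddit3, Pgr, Akr1c14 and Tspo lost their calls with the Bc1 share (adjusted p = 0.12, 0.22, 0.16, 0.065 and 0.088), and Mt2 also with offsets (adjusted p = 0.36) and without the genotype term (adjusted p = 0.13).

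**Figure D3:**
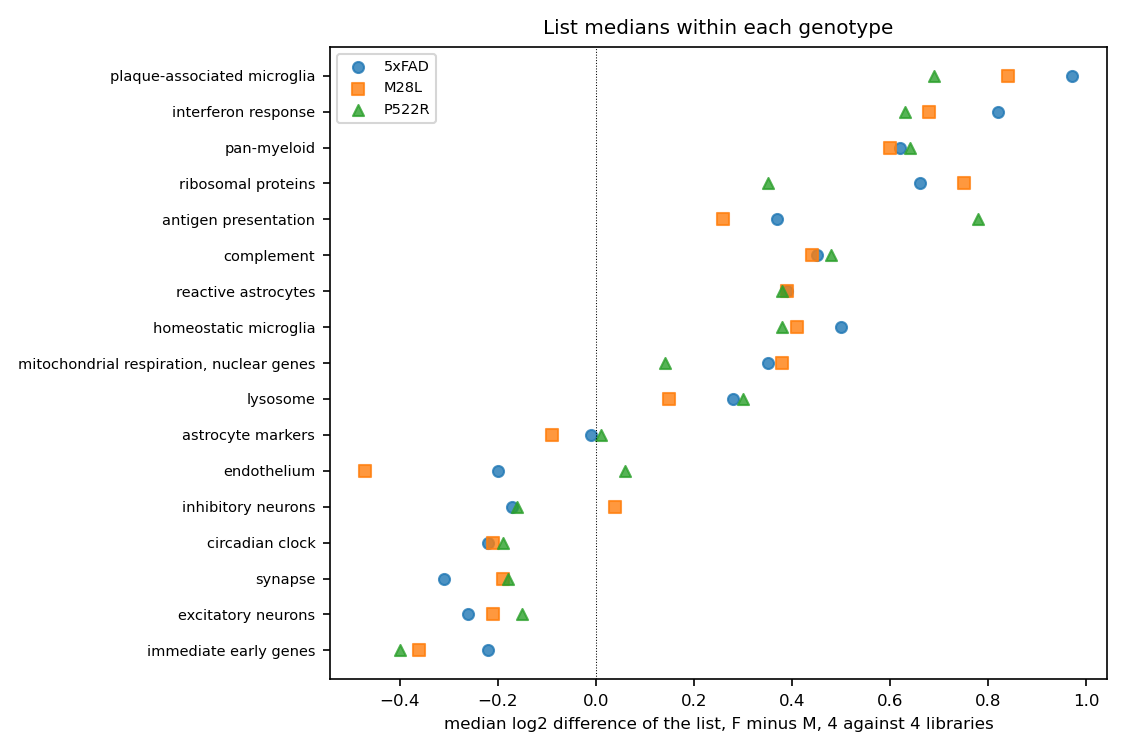
Median F minus M difference (log2) of 17 lists within each genotype, 4 F against 4 M libraries; each symbol is a genotype. Plaque-associated microglia lie at 0.97, 0.84 and 0.69 in 5xFAD, M28L and P522R, and endothelium at -0.20, -0.47 and 0.06.

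Nuclear genes of mitochondrial respiration were mostly higher in F. In all, 29 of 43 were called higher and 1 lower, with a median of 0.30. Ndufb9, a subunit of complex I, separated the letters, from 81.3 to 129.8 CPM in the F libraries (median 104) and from 62.5 to 80.1 CPM in the M libraries (median 73.5), at 0.50 ± 0.07 (adjusted p = 4.8e-06). Cox4i1, a subunit of cytochrome c oxidase, ran from 542 to 943 CPM in the F libraries (median 679.7) and from 351 to 764 CPM in the M libraries (median 444), a difference of 0.57 ± 0.09 (adjusted p = 3.4e-05). Ndufa2 and Ndufa10 of complex I differed by 0.72 ± 0.10 (adjusted p = 4.5e-06) and 0.35 ± 0.06 (adjusted p = 3.1e-05). The 1 called lower was Ppargc1a, a coactivator that promotes mitochondrial genes (-0.36, adjusted p = 0.0037), named after its value was seen. Within genotypes 19, 26 and 6 were called higher in 5xFAD, M28L and P522R, at medians of 0.35, 0.38 and 0.14. With offsets the count was 23 higher and 2 lower at a median of 0.16, and with the Bc1 share 2 and 0 at 0.18. Cox4i1 and Ndufa10 were then not called (adjusted p = 0.089 and 0.065).

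Ribosomal protein genes were all higher: 38 of 38 were called, with a median of 0.57 and a range of 0.20 to 0.94. Rps28 ran from 121 to 206 CPM in the F libraries (median 161) and from 66.6 to 133 CPM in the M libraries (median 81.2), a difference of 0.94 ± 0.10 (adjusted p = 2.8e-07). Rpl3 ran from 547 to 773 CPM in the F libraries (median 706) and from 404 to 571 CPM in the M libraries (median 429), a difference of 0.60 ± 0.07 (adjusted p = 4.4e-07). Rps18 and Rplp2 differed by 0.80 ± 0.09 (adjusted p = 8.9e-07) and 0.76 ± 0.08 (adjusted p = 4.2e-07). Ribosomal protein genes have many processed pseudogenes, so their reads could be split between copies. With offsets 34 were called higher at a median of 0.40, and with the Bc1 share 24 at 0.37.

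Gene length and the letter difference were tied over the whole autosomal set. Over 14136 genes with a mean of at least 1 CPM, the difference had a Pearson correlation of -0.51 with log2 exonic length, as a description across genes, which are not independent. Of 5 bins of equal size, the one with the shortest genes (75 to 2484 bases) had a median difference of 0.20, with 47% of its genes called higher and 3.54% lower. The one with the longest genes (7664 to 123200 bases) had -0.22, with 3.4% called higher and 55.1% lower. The slope of each library's deviation on log2 length ran from -0.189 to 0.0232 in F and from -0.0486 to 0.135 in M, and within each genotype no F slope reached an M slope. With offsets the correlation was -0.01, which follows by construction because the offsets remove each library's trend on length. What sets the slope was not tested.

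**Figure D4:**
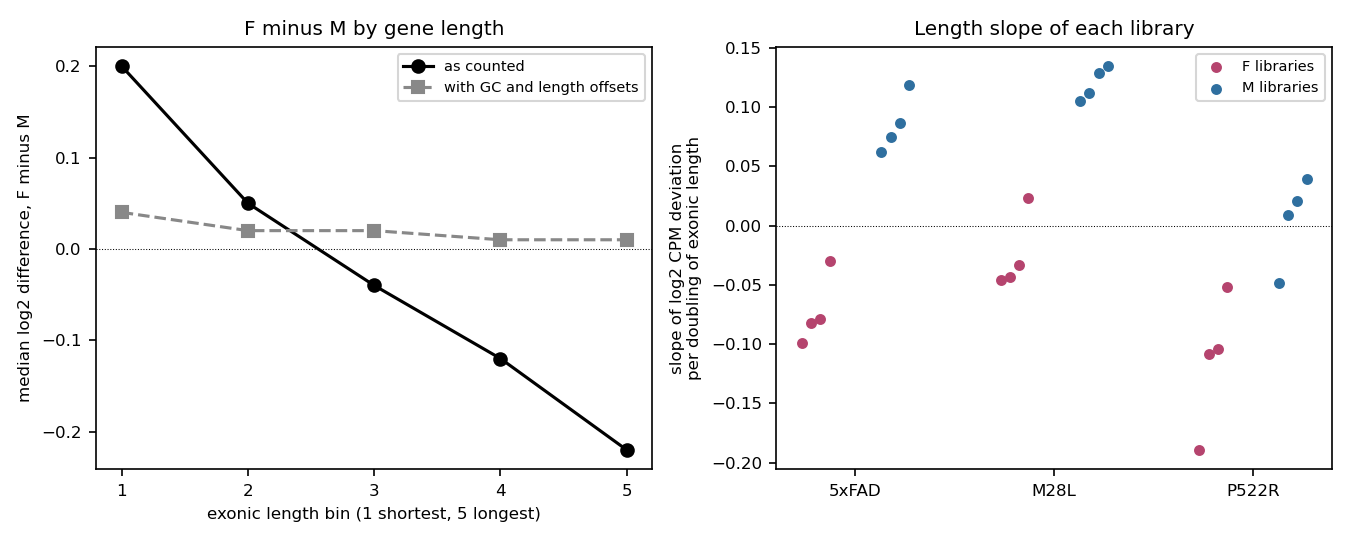
Left, median F minus M difference (log2) by bin of exonic length, as counted and with GC and length offsets, which remove the length trend by construction. Right, slope of log2 CPM deviation per doubling of exonic length in each library; the medians go from 0.20 to -0.22 as counted, and F slopes lie below M slopes in each genotype.

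Other metabolic lists had medians near 0. Glycolysis and lactate genes were 6 higher and 5 lower of 29, against 16.5% and 17.1% of autosomal genes, with a median of 0.02. Hk2, the hexokinase of growing and activated cells, ran from 8.47 to 39.5 CPM in the F libraries (median 12.9) and from 6.001 to 21.5 CPM in the M libraries (median 9.00), a difference of 0.69 ± 0.13 (adjusted p = 1.4e-04). Slc16a3, a lactate exporter, differed by 0.65 ± 0.14 (adjusted p = 8.6e-04) and Tpi1 by 0.30 ± 0.06 (adjusted p = 5.7e-04). Slc16a7, the monocarboxylate importer of neurons, was lower, at -0.41 ± 0.10 (adjusted p = 0.0014). The glucose transporter genes Slc2a1 and Slc2a3 were among the 5 called lower (-0.30 and -0.18, adjusted p = 0.017 and 0.048), named after their values were seen. With offsets 9 were called higher and 3 lower, and Slc16a7 was not, at -0.02 (adjusted p = 0.84). Counts with the Bc1 share were 0 higher and 1 lower, and Hk2, Slc16a3, Tpi1 and Slc16a7 lost their calls (adjusted p = 0.10, 0.10, 0.26 and 0.43).

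Calls among lipid genes also went both ways, against 16.5% higher and 17.1% lower over all autosomal genes. Sterol synthesis was 4 higher and 6 lower of 22, with a median of -0.05. Lss, which closes the ring system of lanosterol, and Hsd17b7, a later enzyme of the pathway, were lower, at -0.28 ± 0.07 (adjusted p = 0.0015) and -0.30 ± 0.06 (adjusted p = 7.0e-04), while Fdps was higher by 0.42 ± 0.09 (adjusted p = 8.6e-04). With offsets Lss came to -0.07 (adjusted p = 0.35), and with the Bc1 share 0 of 22 were called. Hsd17b7 was not called without the genotype term either (adjusted p = 0.075). Fatty acid and lipid handling was 8 higher and 7 lower of 38. Plin2, which coats lipid droplets, ran from 6.66 to 19.4 CPM in the F libraries (median 10.3) and from 6.08 to 13.5 CPM in the M libraries (median 7.22), a difference of 0.55 ± 0.09 (adjusted p = 3.9e-05). Scd1, the desaturase of oleate synthesis, ran from 146 to 225 CPM in the F libraries (median 185) and from 178 to 272 CPM in the M libraries (median 257), a difference of -0.36 ± 0.05 (adjusted p = 1.3e-05).

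Amino acid, one-carbon and redox genes were 15 higher and 6 lower of 37, against 16.5% and 17.1% of autosomal genes, with a median of 0.09. Gpx1, a glutathione peroxidase, ran from 71.5 to 118 CPM in the F libraries (median 83.6) and from 47.2 to 91.4 CPM in the M libraries (median 58.4), a difference of 0.50 ± 0.07 (adjusted p = 7.8e-06). Mthfd2, a mitochondrial folate enzyme and known target of Atf4, ran from 7.87 to 11.9 CPM in the F libraries (median 10.1) and from 6.99 to 9.03 CPM in the M libraries (median 7.47), a difference of 0.41 ± 0.06 (adjusted p = 2.3e-05). Prdx6 and Aldh1a1 differed by 0.41 ± 0.06 (adjusted p = 1.9e-05) and 0.37 ± 0.06 (adjusted p = 2.0e-05). With the Bc1 share 7 were called higher and 0 lower, against 4.06% and 2.52% of autosomal genes.

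Amyloid and transgene genes were 3 higher and 9 lower of 22, against 16.5% and 17.1% of autosomal genes, with a median of -0.12. The list holds enzymes that make and that degrade amyloid-beta as well as Thy1. Thy1, whose promoter drives the transgenes, ran from 1675 to 3479 CPM in the F libraries (median 2821) and from 1800 to 2620 CPM in the M libraries (median 1949), a difference of 0.43 ± 0.08 (adjusted p = 8.7e-05). The difference was 0.42 in 5xFAD, 0.33 in M28L and 0.55 in P522R, and it was 0.36 (adjusted p = 3.5e-06) with offsets. Transgene reads were not separated from mouse reads here. App ran from 1414 to 2012 CPM in the F libraries (median 1761) and from 1812 to 2397 CPM in the M libraries (median 2016), a difference of -0.24 ± 0.06 (adjusted p = 0.0026). This call did not hold with offsets, where App gave 0.02 (adjusted p = 0.80), or with the Bc1 share, -0.20 (adjusted p = 0.13). Sorl1, a sorting receptor of the precursor, ran from 158 to 268 CPM in the F libraries (median 219) and from 259.7 to 346 CPM in the M libraries (median 297), a difference of -0.42 ± 0.07 (adjusted p = 2.9e-05). Ece1, a protease that degrades amyloid-beta, differed by -0.27 ± 0.07 (adjusted p = 0.0022), and Psenen, a subunit of gamma-secretase, by 0.32 ± 0.06 (adjusted p = 1.9e-04). Psenen lost its call with offsets, at 0.06 (adjusted p = 0.31), and Psenen and Ece1 with the Bc1 share (adjusted p = 0.14 and 0.24). The list was 6 higher and 3 lower with offsets and 1 and 1 with the Bc1 share.

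Plcg2, the gene of the variants, encodes a phospholipase downstream of Trem2. It ran from 7.64 to 31.7 CPM in the F libraries (median 12.2) and from 6.08 to 19.4 CPM in the M libraries (median 7.93), a difference of 0.52 ± 0.11 (adjusted p = 8.0e-04). The ranges overlapped widely, and by genotype the difference was 0.49 in 5xFAD, 0.44 in M28L and 0.63 in P522R. With the Bc1 share as covariate it was 0.41 (adjusted p = 0.11), and without the genotype term 0.55 (adjusted p = 0.077).

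Among called genes with a mean of at least 1 CPM, the 10 with the largest rise included Lox, Oas1a, Cst7 and Lgals3. Pdcd1, which encodes the checkpoint receptor PD-1, ran from 1.10 to 4.93 CPM in the F libraries (median 3.33) and from 0.321 to 2.17 CPM in the M libraries (median 0.928), a difference of 1.61 ± 0.18 (adjusted p = 6.2e-07). Hcar2, a receptor for niacin and ketone bodies, ran from 1.39 to 4.58 CPM in the F libraries (median 3.73) and from 0.399 to 2.41 CPM in the M libraries (median 1.26), a difference of 1.44 ± 0.17 (adjusted p = 9.7e-07). By genotype the differences were 1.72 in 5xFAD, 1.66 in M28L and 1.46 in P522R for Pdcd1 and 1.43 in 5xFAD, 1.48 in M28L and 1.40 in P522R for Hcar2. The interferon-induced Ifi27l2a differed by 1.51 ± 0.23 (adjusted p = 1.6e-05), the protease Ctse by 1.33 ± 0.24 (adjusted p = 1.2e-04), the chemokine Cxcl5 by 1.32 ± 0.23 (adjusted p = 6.2e-05) and Asb10 by 1.32 ± 0.19 (adjusted p = 8.5e-06).

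The 10 with the largest fall included Ttr, Nr4a3 and Hspa1b. Kl, the klotho gene of choroid plexus, ran from 1.02 to 3.03 CPM in the F libraries (median 1.91) and from 2.41 to 13.2 CPM in the M libraries (median 3.02), a difference of -0.92 ± 0.19 (adjusted p = 5.2e-04). The highest M value again belongs to M28L M 17. Xkr4 and Stxbp5l, a regulator of vesicle fusion, differed by -0.78 ± 0.10 (adjusted p = 1.3e-06) and -0.75 ± 0.10 (adjusted p = 2.8e-06). Kcna3, a potassium channel, ran from 1.01 to 2.17 CPM in the F libraries (median 1.85) and from 2.01 to 3.47 CPM in the M libraries (median 3.06), a difference of -0.73 ± 0.10 (adjusted p = 4.8e-06). Pappa2, a protease of IGF-binding proteins, differed by -0.73 ± 0.13 (adjusted p = 7.5e-05), Klhl11 by -0.73 ± 0.09 (adjusted p = 2.3e-06) and the guanylate cyclase subunit Gucy1a2 by -0.71 ± 0.09 (adjusted p = 2.3e-06). Kl and Pappa2 were not called with the Bc1 share (adjusted p = 0.065 and 0.093).

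Over all autosomal genes the letter difference was shared in part between genotypes. Within 5xFAD 2906 genes were called (14.1%), within M28L 3069 (14.9%) and within P522R 4548 (22.1%). In the same direction in all 3 were 356 higher and 295 lower, which is 22.4%, 21.2% and 14.3% of the calls of 5xFAD, M28L and P522R. In opposite directions in a pair of genotypes were 50. Across the 20558 genes the differences correlated at 0.55 between 5xFAD and M28L, 0.37 between 5xFAD and P522R and 0.19 between M28L and P522R. These genotypes share no library. Each count moved with single libraries: 5xFAD fell to 1423 without 5xFAD M 1270 (1508, 1553 and 1664 without F 1180, F 1190 and M 1269). M28L fell to 1770 without M28L F 28 (1826, 1896 and 1849 without F 14, M 15 and M 9). P522R ran from 2314 without M 21 to 6887 without F 54 (2711 and 2571 without F 106 and F 24).

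A joint test of whether the letter difference varied between genotypes called 120 autosomal genes (0.584%). Lox, which crosslinks collagen and elastin, had the smallest p. In M28L the 4 F libraries held 10.9, 12.2, 20.2 and 22.8 CPM and the 4 M libraries from 0.449 to 0.891 CPM. In 5xFAD the F libraries ran from 1.27 to 2.44 and the M libraries from 0.807 to 1.08 CPM, and in P522R from 1.11 to 2.16 and from 0.688 to 1.72 CPM. The differences were 0.89 in 5xFAD, 4.57 in M28L and 0.53 in P522R (joint adjusted p = 3.9e-06).

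Tnc, the matrix protein tenascin-C, was also highest in M28L F. It held 9.80 to 14.0 CPM in M28L F and at most 3.90 CPM elsewhere, with differences of -0.36 in 5xFAD, 1.70 in M28L and 0.25 in P522R (joint adjusted p = 1.7e-04). Its call over all genotypes, 0.54 ± 0.20 (adjusted p = 0.035), was lost on leaving out P522R F 8, M28L F 14, M28L F 16 or any 1 of the M28L M libraries, and with the Bc1 share (0.67, adjusted p = 0.14). The joint calls of Lox and Tnc held under all 28 alternatives, at adjusted p of at most 3.8e-04 and 0.0013.

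Tfrc, the transferrin receptor, differed in P522R. It held 80.02 to 102 CPM in P522R F and 131 to 175 CPM in P522R M, while in M28L every F library lay above every M library (114.4 to 133 against 94.1 to 113.8 CPM) and in 5xFAD the ranges overlapped, with differences of 0.01 in 5xFAD, 0.23 in M28L and -0.64 in P522R (joint adjusted p = 0.015). This call was lost with offsets (joint adjusted p = 0.16). It was also lost without the 5 libraries high in Bc1, but that fit kept a single P522R F library and cannot decide it. Flt1 (joint adjusted p = 0.034) and Acta2 (0.042) also varied, with differences of -0.59 in 5xFAD, -1.01 in M28L and 0.03 in P522R for Flt1 and -0.02 in 5xFAD, 1.22 in M28L and 0.61 in P522R for Acta2. The number of joint calls depended on single libraries: it was 10 without P522R F 106 and 993 without M28L F 12, and leaving out any library but 5xFAD M 1177 or P522R M 23 moved it by over 1.5 times.

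**Figure D5:**
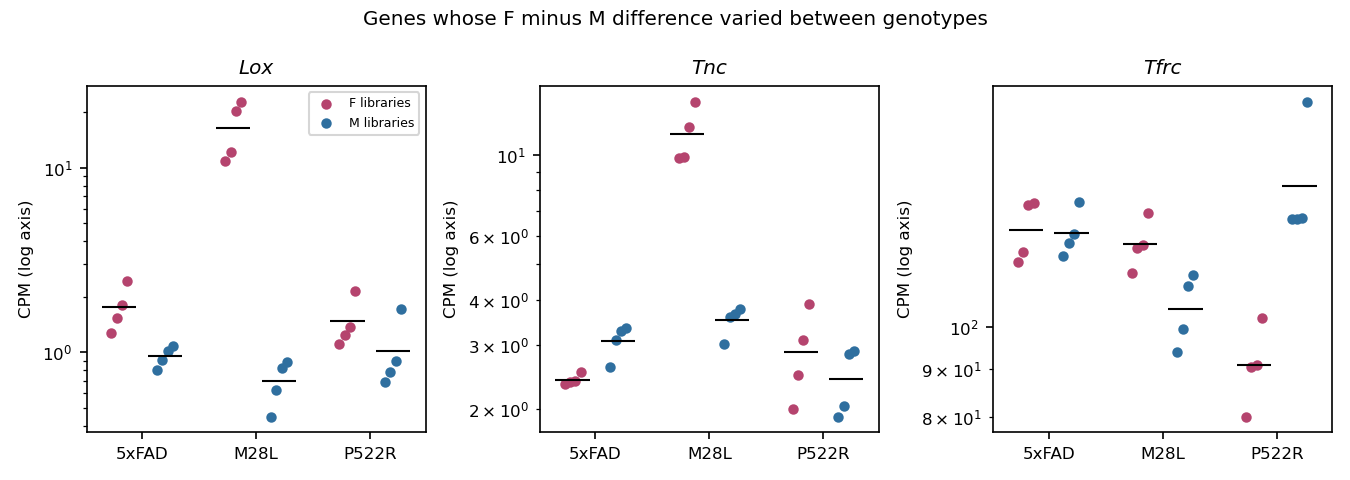
CPM (log axis) of Lox, Tnc and Tfrc in each library by genotype and letter; bars are means of 4 libraries. The M28L F libraries lie above all others for Lox, from 10.9 CPM, and for Tnc, from 9.80 CPM, and the P522R F libraries lie below the P522R M libraries for Tfrc.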

How the data were processed

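Per the labels' protocols, cortex RNA was isolated by chloroform extraction with the Purelink column kit, and the KAPA mRNA HyperPrep kit gave the libraries. STAR 2.7.2b and featureCounts were used, per the submitters' processing notes. The genome build, annotation and strand setting are not given in the sources used here, so reads of overlapping and antisense genes cannot be told apart. The authors deposited whole-number read counts per gene, not normalized, for 24 libraries. Of 53647 identifiers 97.1% matched GENCODE 21 for mouse, which gave symbols. Only 2.8% of genes had the same start and end there, so the deposited coordinates are not those of that release. The promoter coordinates printed above are on GRCm38.p6, and promoters were joined to genes by symbol. No pair of libraries held identical counts.

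Counts were tested with edgeR 4.0.16 in R 4.3.3 (quasi-likelihood test, TMM factors, filterByExpr on genotype), with genotype and letter as terms. A 6-group fit gave the differences within genotypes and the interaction. CPM uses TMM-adjusted library sizes. Library measures were compared by exact permutation of letters within genotype, with adjustment over the measures. Offsets for GC content and gene length were fitted as splines of 5 degrees of freedom for each library. Alternatives were DESeq2 1.42.0, limma-voom (limma 3.58.1), surrogate variables (sva 3.50.0), other factors, filters and covariates, and leaving out each library. The pipeline was tested on simulated data.

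Named genes were App, Thy1, Plcg2, Trem2, Apoe, Gfap and Itgax, the 10 largest rises and falls among calls with a mean of at least 1 CPM (predicted genes left out), for each list its 4 smallest p, and the 5 smallest interaction p. Not all are printed, and some genes are not reported here. Members, lists and tests were chosen with earlier results of these data known. p-values measure the spread between mice, whose litters and processing batches are not given in the labels.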

Additional observations from a re-analysis of the deposited data

Results flagged for a closer look

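In 96 groups of 4 libraries, 3 held a library far from the other 3 of its group, and chance gives this in about 1 group in 20. Bc1 took 6.01% of the counts in M28L F 28, against 3.99% to 4.27% in the rest of its group. Haemoglobin genes took 0.00195% in 5xFAD M 1177, against 2.27e-05% to 4.42e-05%. Tfrc was at 174.9 CPM in P522R M 21, against 130.7 to 131.2 CPM in the rest.

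The F minus M difference varied between genotypes, by the joint interaction test, for 5 named genes. Adjusted p was 3.9e-06 for Lox, 1.7e-04 for Tnc, 0.015 for Tfrc, 0.034 for Flt1 and 0.042 for Acta2. Over 28 alternatives the joint call of Flt1 was lost in 12 and that of Acta2 in 17. Among the 28 was the fit without the libraries high in Bc1, which kept a single P522R F library. Lox and Tnc were highest in the 4 M28L F libraries.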

How the results depend on the processing

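No paired analysis was possible because the animal numbers in the titles differ between all groups. The count of 6910 autosomal calls ran from 6300 to 7648 on leaving out 1 library at a time. It was 1353 with the Bc1 share as covariate, 1439 with offsets for GC and length and the Bc1 share together, 2397 with the libraries of M28L alone and 1450 with those of P522R alone (8 libraries each). The interaction count of 120 was 183 with offsets, 2874 with limma-voom, and 10 to 993 on leaving out 1 library. Within 5xFAD the count ran from 1423 to 3648 and within M28L from 1770 to 3987 on leaving out 1 library. Within P522R it ran from 2314 to 6887, and was 2945 with offsets and 53 without the 5 libraries high in Bc1, of which 4 were P522R. Of calls higher in F the share was 49.2% as reported, 63.7% with upper-quartile factors, 59.9% with offsets and 61.7% with the Bc1 share. The causes were not tested.

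Signs turned for App with offsets (0.02), for Slc16a7 (0.05), Sox6 (0.03) and Cemip (0.01) with offsets and the Bc1 share, and, in single genotypes, for Abcb1a (0.02), Cemip (0.03) and Flt1 (0.04) in P522R, for Sdf2l1 (-0.01) in M28L and for Acta2 (-0.00) and Tnc (-0.34) in 5xFAD. Of 150 called named genes, 132 kept their call and direction with offsets, 94 with the Bc1 share and 78 with both. With the 8 libraries of a single genotype, 132 of 146 did in 5xFAD, 101 of 146 in M28L and 67 of 147 in P522R. Leaving out the 5 libraries high in Bc1, the offsets within genotypes and in the interaction test, and the offsets together with the Bc1 share were chosen after seeing the data. Genes far below 1 CPM, Nkg7 and Cd3e among them, rest on few reads.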

Other observations

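Markers of regions next to the cortex were read in the same libraries. Of 17 striatal genes 0 were called higher and 5 lower, with a median of -0.08, and their summed level ran from 1430 to 1909 CPM in F and from 1546 to 1995 CPM in M. Pde10a, the phosphodiesterase of striatal projection neurons, differed by -0.49 ± 0.08 (adjusted p = 7.1e-05) and the dopamine receptor gene Drd1 by -0.34 ± 0.06 (adjusted p = 1.2e-04). Of 14 thalamic genes 3 were called higher and 6 lower, against 16.5% and 17.1% of autosomal genes, with a median of -0.11. Prkcd, a kinase enriched in thalamic relay cells, differed by 0.43 ± 0.09 (adjusted p = 2.9e-04), and the vesicular glutamate transporter gene Slc17a6 by -0.42 ± 0.09 (adjusted p = 6.7e-04). Of 13 hippocampal genes 1 was called lower, Prox1 of the dentate gyrus, at -0.23 ± 0.06 (adjusted p = 0.0030). Of 4 tested pituitary and hypothalamic genes 1 was called higher, Pomc, which ran from 0.553 to 1.07 CPM in the F libraries (median 0.733) and from 0.254 to 0.687 CPM in the M libraries (median 0.467), a difference of 0.68 ± 0.15 (adjusted p = 0.0010). Among the meningeal and fibroblast genes called higher were Igfbp2, at 0.40 ± 0.06 (adjusted p = 2.1e-05), and Mgp, at 0.37 ± 0.08 (adjusted p = 0.0010). With offsets the striatal count was 1 higher and 8 lower and the thalamic one 1 and 3, and with the Bc1 share 0 and 1 and 0 and 0. Prox1 and Mgp were not called with offsets (adjusted p = 0.87 and 0.27). Pde10a, Prkcd, Slc17a6, Prox1 and Pomc were not called with the Bc1 share (adjusted p = 0.13, 0.12, 0.28, 0.079 and 0.084).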
